A study of Mus musculus with 16 samples.

Results

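The hairpin against thioredoxin reductase 1 (TR1) was compared as present against absent in CT26 cells, a mouse colon carcinoma line of the BALB/c strain. The hairpin was present in 8 arrays, 4 of shTR1 cells and 4 of shTR1/shSep15 cells, and absent in 8, 4 of control cells and 4 of shSep15 cells, so that all 16 arrays of the series entered. All 4 lines were stably transfected with the pU6-m3 vector and kept under hygromycin selection. Control cells carried the empty vector, shSep15 cells a hairpin against the 15 kDa selenoprotein (Sep15), and shTR1/shSep15 cells both hairpins. The TR1 effect was therefore measured in 2 backgrounds that share no array, as shTR1 against control cells without the Sep15 hairpin and as shTR1/shSep15 against shSep15 cells with it. The main effect is the mean of both differences, on the log2 scale of the array signal, tested for 45037 probe sets with limma. A probe set was said to have moved alike when the adjusted p of its main effect was under 0.05, both differences had the same sign, each was at least 0.5 times the main effect and each had an unadjusted p under 0.05. This is a description of the probe sets and has no test of its own. The hairpin and other differences between separately selected transfectants cannot be told apart with 2 lines against 2. No source used here says which clones the arrays hold or whether the 4 mRNA samples of a line were grown separately, and the p-values cover the spread among mRNA samples only, which may be technical.

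TR1, encoded by Txnrd1, is the cytosolic selenoenzyme that uses NADPH to reduce thioredoxin. Reduced thioredoxin passes electrons to ribonucleotide reductase, peroxiredoxins and methionine sulfoxide reductases, and it keeps cysteines of transcription factors reduced. Txnrd1 is itself a target of Nrf2, the transcription factor that induces antioxidant enzymes, and many tumour cells hold high levels of the enzyme. Sep15, encoded by Selenof, is a selenoprotein of the endoplasmic reticulum that binds the glucosyltransferase which checks the folding of glycoproteins.

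The target of each hairpin is shown because it defines the groups. Txnrd1 lies on chromosome 10 from 82833951 to 82897724 and Selenof on chromosome 3 from 144570427 to 144597677 (GRCm38.p6). The TR1 target has 22 bases with a GC content of 40.9% and the Sep15 target has 19 bases with 31.6%.
TR1 hairpin target in Txnrd1: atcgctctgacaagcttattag
Sep15 hairpin target in Selenof: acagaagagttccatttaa

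Txnrd1 had a lower mean with the TR1 hairpin in both backgrounds, with a wide spread among the arrays labelled shTR1. At its brightest probe set the log2 signal was 7.85, 10.57, 7.89 and 9.71 in shTR1 replicates 1 to 4, against 10.39, 9.45, 9.90 and 10.10 in control cells. It was 7.60, 7.18, 7.73 and 7.91 in shTR1/shSep15 cells, against 9.86, 10.62, 9.54 and 9.66 in shSep15 cells. The shTR1/shSep15 and shSep15 arrays did not overlap, whereas shTR1 replicate 4 was within the control range and replicate 2 above it. The main effect was -1.64 on the log2 scale (95% interval -2.38 to -0.89), with -0.96 without and -2.32 with the Sep15 hairpin. An exact permutation test over arrays within each background gave p = 0.00408 (two-sided, 4900 arrangements), while the adjusted p of limma over all probe sets was 0.0681. At the other Txnrd1 probe sets, which have lower signals, the main effect was -0.80 and -0.33 (exact permutation p = 0.00204 and 0.00898). Neither passed by limma (adjusted p = 0.103 and 0.365). With shTR1 replicates 2 and 4 left out, the main effect at the brightest probe set was -2.21 (adjusted p = 0.000519 from limma), 176 probe sets passed for the main effect and 72 moved alike, of which 32 were among the 58 given below. Directions drawn from the arrays labelled shTR1 rest on all 4 of them unless stated. Selenof, the gene of Sep15, averaged 11.84 ± 0.35 in shTR1 and 11.33 ± 0.37 in control cells, and 7.66 ± 0.22 in shTR1/shSep15 and 8.13 ± 0.12 in shSep15 cells (SD, n = 4 each), with a TR1 main effect of 0.02 (exact permutation p = 0.927). That value is the mean of 0.51 without and -0.47 with the Sep15 hairpin (adjusted p of the difference 0.0719 from limma).

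**Figure D1:**
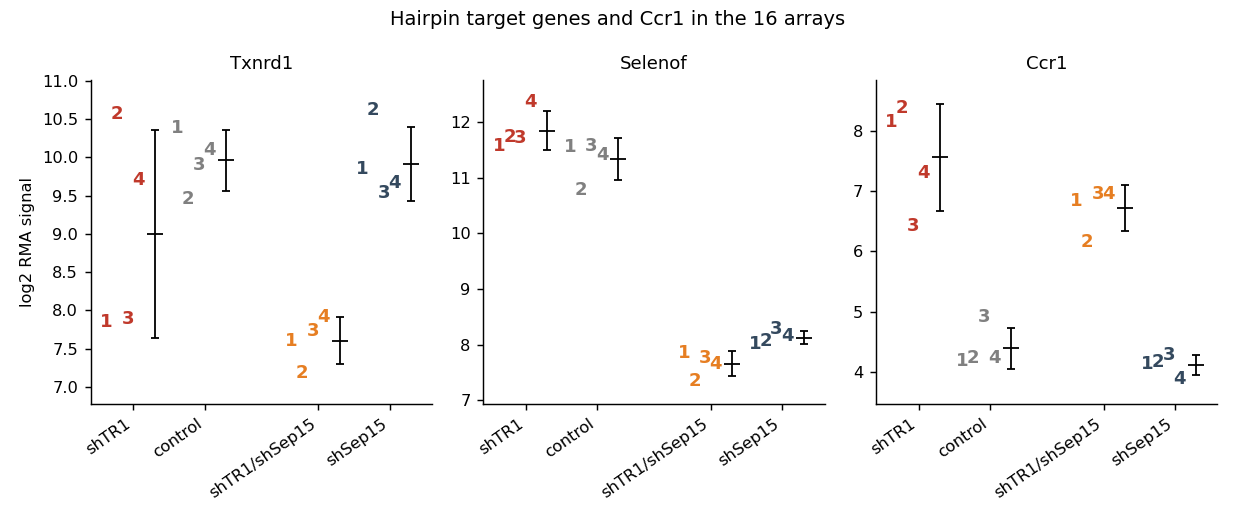
Log2 RMA signal of Txnrd1, Selenof and Ccr1 at their brightest probe sets in the 16 arrays, by line. Digits number the replicates of each line, dashes are means and bars the SD (n = 4); Ccr1 is at 6.16 or above in all 8 arrays with the TR1 hairpin and at 4.91 or below in all 8 without it, while Txnrd1 in shTR1 replicates 2 and 4 lies near the control arrays.

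The arrays had medians of 4.45 to 4.58 and upper quartiles of 6.35 to 6.76. Control replicate 2 stood apart, with a median correlation of 0.941 with the other arrays, against 0.966 to 0.983 for the others. Its mean over 22 immediate-early transcription factors, which growth and stress signals induce within minutes, was 11.22, against 7.53 to 8.40 in the other arrays. Without that array 202 probe sets passed for the main effect and 85 moved alike, of which 42 were among the 58 given below. The mean signal of the hybridization spike-ins was 9.18 to 10.43 (median 9.82) in arrays with the TR1 hairpin and 9.43 to 10.65 (median 10.24) in those without. Of 16 colon epithelial markers, Cdh1 (2.38 to 2.77 with and 2.31 to 2.80 without the hairpin), Vil1 and Fabp2 lay below the median signal of 4.51 in all arrays, and Epcam was at 5.44 to 6.59 with and 5.62 to 6.49 without it. The mean over the 16 was 4.50 to 5.03 with and 4.22 to 5.01 without the hairpin. Among the 16, 4 had a positive and 12 a negative main effect, and Krt18 is given below.

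For the main effect, 137 of 45037 probe sets passed (0.304%), 99 of them higher (0.22%) and 38 lower (0.0844%) with the TR1 hairpin. Of these, 58 moved alike in both backgrounds (0.129% of all), 54 higher (0.12%) and 4 lower (0.00888%), and 79 did not. The split of those that moved alike was 51 higher and 11 lower after a further quantile normalization, 36 and 13 with the spike-in level as a covariate, and 182 and 31 with array quality weights. With the replicate number as a block in the shTR1/shSep15 and shSep15 lines, whose same-numbered arrays deviated together, 66 probe sets passed for the main effect and 30 moved alike (28 higher and 2 lower). The 58 probe sets stand for 46 genes, 42 of them higher, and 7 have no single gene symbol. Among all probe sets, the difference in the 2 backgrounds had the same sign in 40.7% (Pearson r = -0.218 and Spearman correlation -0.217 across 45037 probe sets, which are not independent replicates). In shTR1 against control cells 81 probe sets passed (0.18%), 59 higher (0.131%) and 22 lower (0.0488%), of which 11 had the same sign and 70 the opposite sign in shTR1/shSep15 against shSep15 cells. With the Sep15 hairpin 1196 passed (2.66%), 486 higher (1.08%) and 710 lower (1.58%), of which 370 had the same sign without the Sep15 hairpin. Ccr1 alone passed in both backgrounds in the same direction, and 26 probe sets passed in opposite directions. The 2 backgrounds differed in the TR1 effect at 1282 probe sets (2.85%), with a higher effect at 331 (0.735%) and a lower one at 951 (2.11%) in the Sep15 hairpin background.

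**Figure D2:**
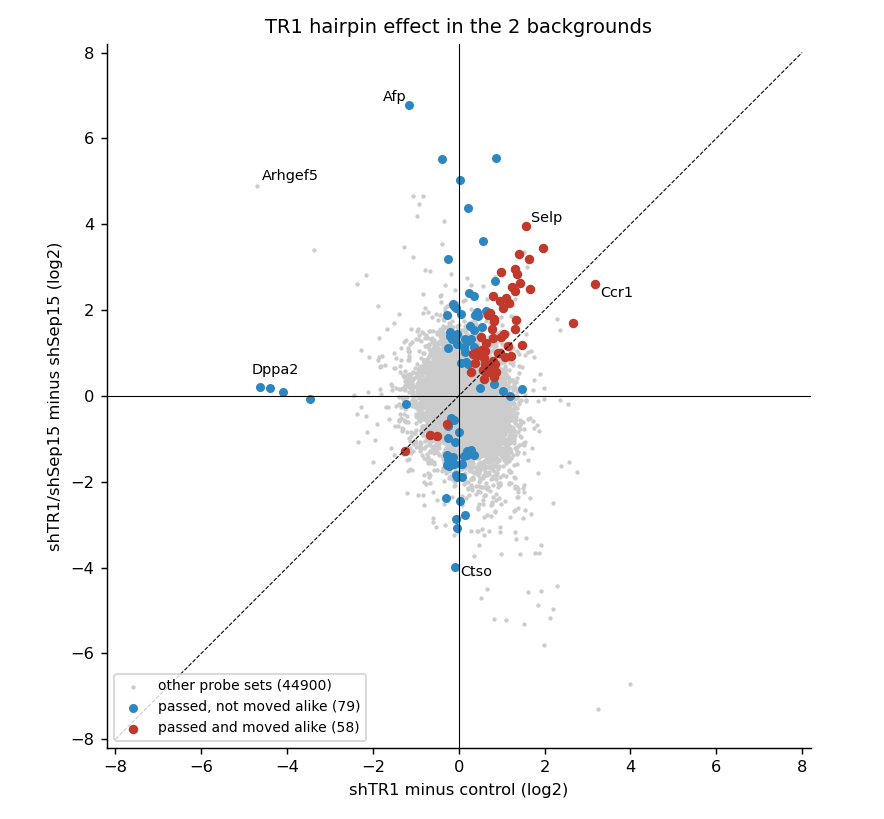
Each point is 1 of 45037 probe sets, with the log2 difference of shTR1 minus control on the x axis and of shTR1/shSep15 minus shSep15 on the y axis; the dashed line marks equal effects. Red points passed and moved alike (58), blue points passed the main effect without moving alike (79), and 28 of the blue points lie in the quadrants of opposite sign.

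Within the 58 probe sets, the median size of the main effect was 1.16 on the log2 scale, with a range from 0.42 to 2.89, and 32 changed at least 2-fold. The median size was 1.32 with and 0.86 without the Sep15 hairpin, and 47 of the 58 moved more in the Sep15 hairpin background. None of them had an adjusted p under 0.05 for the difference between the backgrounds, and 17 had an unadjusted p under 0.05. The criteria for moving alike bound that difference, so these counts are a description. For 18 of the 58, all higher, the 8 arrays with the hairpin lay above all 8 without it, which held for 37 of all 45037 probe sets (0.0822%). Of the 54 higher probe sets, 46, 49, 38 and 36 lay above all 8 hairpin-free arrays in shTR1 replicates 1 to 4. In the shTR1/shSep15 arrays 42 to 49 did. They were chosen for being higher in these same arrays, so these counts are a description as well. Among the shTR1 arrays the highest and the lowest count were in replicates 2 and 4, whose Txnrd1 was above or within the control range. The reason was not tested. The mean signal of the 58 ranged from 3.36 to 11.11, with a median of 6.81 against 4.52 over all probe sets, and 9 of the higher ones had a hairpin-free mean below the median of all values. Over 30 other settings of the fit, 5 of the 58 passed in all (Ccr1, Rgl1, Ngef, Fgfr1 and an unnamed probe set), 27 passed in at least 25 and 20 in fewer than 15. Those 20 were 2 unnamed probe sets and those of Krt18, Cd68, Thbs2, Padi2, Mmd, Havcr2, Lims2, Stag2, Bcl6b, Sdha, Med10, Cplx2, Wwp2, Clcn5, Aldh2, Cps1, Nipbl and Ccdc80. These counts are of passing for the main effect, and some probe sets moved alike in fewer settings than they passed in. Nudt9 passed in 21 but moved alike in 6, Sh3kbp1 in 27 and 17, and Syt7 at its brightest probe set in 27 and 19.

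Of the 46 genes, 38 moved alike at their brightest probe set, and Fgfr1, Slc14a1, Tmlhe, Aebp1, Clcn5, Aldh2, Gatad2a and Ccdc80 at a dimmer one. Chromosome 5 held 7 of the 46 genes (15.2%, against 6.17% of the genes measured) and the X chromosome 5 (10.9%, against 3.39%). The genes are given below in groups by their known roles. These groups were formed after the values were seen and were not tested as lists.

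Ccr1, a receptor for inflammatory CC chemokines such as CCL3 and CCL5, showed the largest main effect among the genes that moved alike. Its log2 signal was 8.14, 8.39, 6.43 and 7.30 in shTR1 cells, against 4.19, 4.24, 4.91 and 4.23 in control cells. It was 6.84, 6.16, 6.95 and 6.95 in shTR1/shSep15 cells, against 4.13, 4.17, 4.28 and 3.87 in shSep15 cells. The groups did not overlap in either background. The main effect was 2.89, or 7.44-fold (95% interval 2.38 to 3.41 on the log2 scale, adjusted p = 0.000247), with 3.18 without and 2.61 with the Sep15 hairpin and a difference between the backgrounds of -0.56 (95% interval -1.59 to 0.46). A dimmer Ccr1 probe set differed by 0.77 in the same direction (exact permutation p = 0.000408, the smallest that 4900 arrangements can give), but its adjusted p was 0.289. Of 34 chemokines and chemokine receptors measured, Ccr1 alone passed, and the list had a median main effect of -0.09, against -0.01 over all 18193 genes, of which 90 passed (0.495%). The ligand genes Ccl3 and Ccl5 did not pass (main effects -0.07 and -1.34, adjusted p = 0.885 and 0.601), and Ccr2 was at 4.18 to 4.66 with and 4.15 to 4.98 without the hairpin.

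Other surface and secreted signalling proteins rose as well. Selp, the adhesion receptor P-selectin, was at 10.24, 8.81, 8.42 and 8.47 in shTR1 cells, against 7.27, 8.60, 7.19 and 6.59 in control cells. It was at 9.21, 8.41, 9.04 and 8.23 in shTR1/shSep15 cells, against 5.65, 4.36, 4.72 and 4.36 in shSep15 cells. Control replicate 2 overlapped with the shTR1 arrays, and the shTR1/shSep15 and shSep15 arrays were more than 2 log2 units apart. The main effect of Selp was 2.76 (standard error 0.33, adjusted p = 0.00162), and 2 further Selp probe sets differed by 1.85 and 2.29 (adjusted p = 0.0553 and 0.0554). Grem1, the secreted BMP antagonist gremlin, was at 11.03, 10.89, 8.83 and 8.92 in shTR1 cells, against 6.71, 8.69, 9.88 and 6.57 in control cells. Those groups overlapped, and the shTR1/shSep15 arrays, at 8.83 to 9.20, lay above the shSep15 arrays, at 5.19 to 5.91 (main effect 2.70, adjusted p = 0.022). Btc, the EGF receptor ligand betacellulin, was at 7.17, 5.67, 5.07 and 4.99 in shTR1 cells, against 4.40, 4.66, 4.46 and 4.15 in control cells. It was at 7.24, 6.16, 7.49 and 6.52 in shTR1/shSep15 cells, against 4.27, 4.25, 4.64 and 4.49 in shSep15 cells, so that no array with the hairpin was as low as any without it. Its main effect was 1.88 (standard error 0.28, adjusted p = 0.00879). Fgfr1, a receptor tyrosine kinase for fibroblast growth factors, was at 6.05 to 6.66 in the 8 arrays with the hairpin and at 4.92 to 5.72 in the 8 without it (main effect 1.07, adjusted p = 0.00043). That probe set is dimmer than another one of Fgfr1, which differed by 0.81 (adjusted p = 0.0553). Havcr2, the inhibitory immune receptor TIM-3, rose by 1.08 and Thbs2, the matricellular protein thrombospondin 2, by 2.04 (adjusted p = 0.0405 and 0.0375), each with some overlap between the groups.

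**Figure D3:**
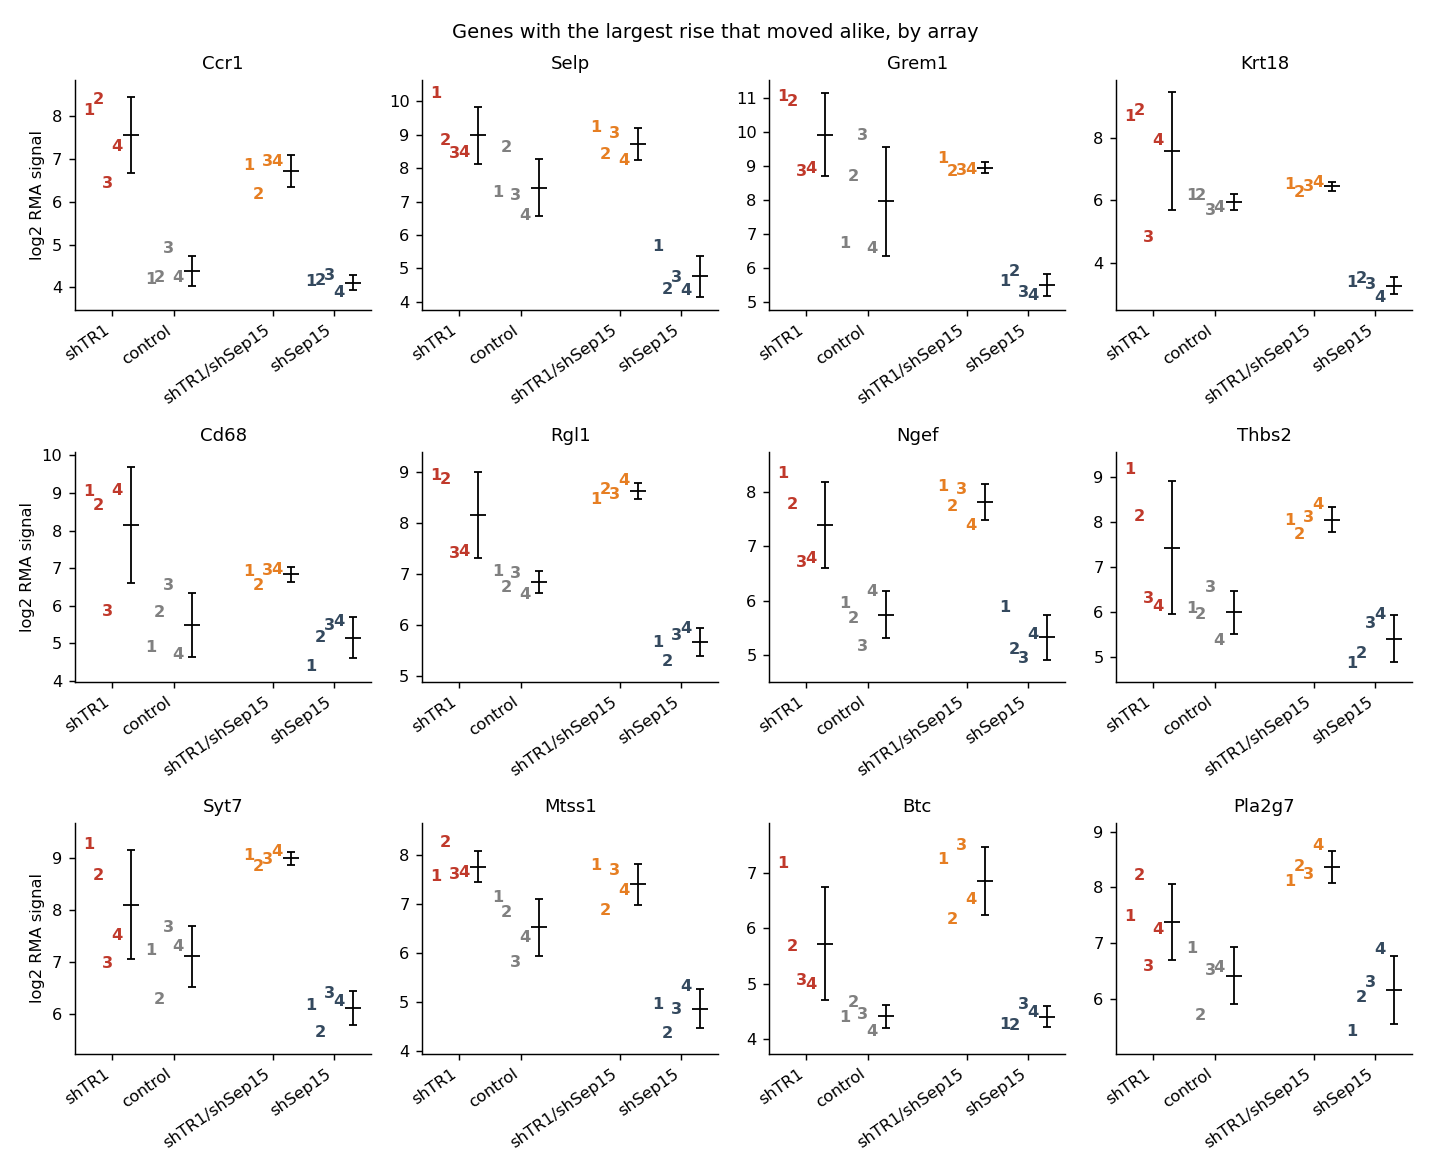
Log2 RMA signal in each array of the 12 genes with the largest rise among those that moved alike at their brightest probe set. Digits number the replicates of each line, dashes are means and bars the SD (n = 4); for Ccr1, Rgl1, Ngef and Btc no array with the TR1 hairpin is as low as any array without it, and for Krt18 and Cd68 shTR1 replicate 3 lies within or below the range of the control arrays.

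Regulators of small GTPases and of the cytoskeleton formed the next group. Rgl1, an exchange factor for Ral GTPases, was at 8.92, 8.84, 7.39 and 7.45 in shTR1 cells, against 7.04, 6.73, 7.00 and 6.60 in control cells. It was at 8.46, 8.65, 8.55 and 8.83 in shTR1/shSep15 cells, against 5.66, 5.28, 5.78 and 5.93 in shSep15 cells. The groups did not overlap, the main effect was 2.13 (standard error 0.21, adjusted p = 0.000454), and a second Rgl1 probe set also moved alike, with 1.67. Ngef, the guanine nucleotide exchange factor ephexin that acts below Eph receptors, was at 8.34, 7.76, 6.70 and 6.78 in shTR1 cells, against 5.94, 5.68, 5.16 and 6.17 in control cells. It was at 8.11, 7.73, 8.04 and 7.38 in shTR1/shSep15 cells, against 5.88, 5.11, 4.93 and 5.37 in shSep15 cells (main effect 2.07, standard error 0.24, adjusted p = 0.00155), again with no overlap. Mtss1, which binds actin and bends membranes, rose by 1.89 and by 1.69 at 2 probe sets that both moved alike (adjusted p = 0.00083 and 0.00327). Sh3kbp1, an adaptor of receptor endocytosis, rose by 1.57, Lims2, an adaptor of integrin signalling, by 0.99, Hip1r, a link between clathrin coats and actin, by 0.57, and Dok1, a docking protein of tyrosine kinases, by 0.58. For Lims2 and Dok1 the 8 arrays with the hairpin lay above all 8 without it.

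Krt18, a keratin of simple epithelia, and Cd68, a lysosomal protein used as a marker of macrophages, rose with a wide spread. Krt18 was at 8.69, 8.90, 4.81 and 7.93 in shTR1 cells, against 6.17, 6.16, 5.67 and 5.78 in control cells, and at 6.25 to 6.58 in shTR1/shSep15 cells, against 2.89 to 3.50 in shSep15 cells (main effect 2.41, adjusted p = 0.0346). Cd68 was at 9.04, 8.66, 5.83 and 9.07 in shTR1 cells, against 4.88, 5.83, 6.53 and 4.69 in control cells, and at 6.55 to 6.97 in shTR1/shSep15 cells, against 4.38 to 5.58 in shSep15 cells (main effect 2.18, adjusted p = 0.0469). In both genes shTR1 replicate 3 was the low array of its line. Cd68 passed in 6 of the 30 other settings and Krt18 in 11. Cd68 was the only one of 15 leukocyte markers measured that passed. Of the 15, 5 had a positive and 10 a negative main effect. At an unadjusted p under 0.05, 2 were higher, Cd68 among them, and 0 lower, against 6.91% and 3.57% of all genes. The pan-leukocyte gene Ptprc was at 2.56 to 3.09 with and 2.42 to 3.08 without the hairpin, the macrophage genes Adgre1 and Itgam were at 3.08 to 3.91 with and 3.27 to 4.05 without it, and the list had a median main effect of -0.04 and a mean level of 4.74 to 5.33 with and 4.67 to 5.26 without the hairpin. Of the colon epithelial markers, Krt18 alone passed at the brightest probe set, Krt20 passed as well when all probe sets of a gene were averaged, and Krt8, the usual partner of Krt18 in filaments, differed by -0.09 (adjusted p = 0.828). In whole-culture RNA, more cells that express a gene and more RNA of it per cell cannot be told apart.

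Genes of vesicle release and of neurons were also among those that moved alike. Syt7, a calcium sensor of exocytosis, rose at 3 probe sets, by 1.94, 1.29 and 0.73 (adjusted p = 0.00822, 0.021 and 0.0101), and at the brightest it was at 9.27, 8.66, 6.98 and 7.52 in shTR1 cells, against 7.22, 6.29, 7.66 and 7.30 in control cells. The shTR1/shSep15 arrays, at 8.84 to 9.13, lay above the shSep15 arrays, at 5.64 to 6.41. Gap43, a growth cone protein, was at 6.98, 7.04, 6.05 and 5.92 in shTR1 cells, against 5.68, 5.18, 5.10 and 5.47 in control cells, and at 6.39, 6.21, 6.59 and 6.33 in shTR1/shSep15 cells, against 4.84, 5.10, 5.55 and 5.37 in shSep15 cells. Its rise was 1.14 without and 1.16 with the Sep15 hairpin (adjusted p of the main effect 0.00904), and the groups did not overlap. Cacna2d1, a calcium channel subunit, rose by 1.33, Cplx2, a complexin of synaptic vesicles, by 0.71 and Clcn5, an endosomal chloride exchanger, by 0.68 (adjusted p = 0.00317, 0.0338 and 0.036).

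Enzymes formed a further group. Pla2g7, which hydrolyses platelet-activating factor, was at 7.47, 8.22, 6.57 and 7.25 in shTR1 cells, against 6.90, 5.70, 6.51 and 6.56 in control cells, and at 8.10 to 8.75 in shTR1/shSep15 cells, against 5.41 to 6.88 in shSep15 cells (main effect 1.59, adjusted p = 0.0123). Padi2, which converts arginine in proteins to citrulline, rose by 1.44 and Tmlhe, the first enzyme of carnitine synthesis, by 1.17 and 0.94 at 2 dim probe sets. Where the rise was 1.17, Tmlhe averaged 4.25 in shTR1 and 3.47 in control cells, and 3.63 in shTR1/shSep15 and 2.07 in shSep15 cells. The shSep15 cells thus had the lowest mean, and the Sep15 hairpin's own main effect passed there (-1.01, adjusted p = 0.0329 from limma). Sdha, the flavoprotein subunit of mitochondrial complex II, was at 9.18 to 9.74 in the 8 arrays with the hairpin and at 7.84 to 9.11 in the 8 without it (main effect 0.80, adjusted p = 0.0469), and it passed in 7 of the 30 other settings. Nudt9, an ADP-ribose pyrophosphatase, rose by 0.65 and Aldh2, the mitochondrial aldehyde dehydrogenase, by 0.64 at 1 dim probe set. The brightest Aldh2 probe set differed by 0.80 (adjusted p = 0.0575). The urea transporter gene Slc14a1 rose by 1.29 at a dim probe set, and its brighter probe set differed by 2.14 (adjusted p = 0.0629).

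Regulators of transcription, chromatin and RNA made up the last group of higher genes. Sox2, a transcription factor of stem cells, was at 8.72, 7.95, 7.82 and 8.34 in shTR1 cells, against 7.58, 7.24, 7.14 and 6.78 in control cells. It was at 8.60, 7.76, 8.75 and 8.02 in shTR1/shSep15 cells, against 7.06, 5.08, 6.36 and 6.47 in shSep15 cells. The groups did not overlap (main effect 1.53, adjusted p = 0.0164). Bcl6b, a transcriptional repressor, rose by 0.93, Med10, a subunit of Mediator, by 0.73 and Gatad2a, a subunit of the NuRD complex, by 0.42. Stag2, a cohesin subunit, rose by 0.98, the ribosome biogenesis factor Rbm19 by 0.73, the translation factor Mcts1 by 0.96 and the tRNA dihydrouridine synthase Dus2 by 0.50 (adjusted p of these 7 between 0.00512 and 0.0499). Mmd, a membrane protein of the progestin receptor family, rose by 1.31, the BCL2 relative Bok by 0.84, Aebp1 by 0.81, the ubiquitin ligase Wwp2 by 0.68, the peptidyl-prolyl isomerase Fkbp11 by 0.63 and 4930486L24Rik by 1.25.

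The probe sets that fell in both backgrounds numbered 4, and their number depended on the setting, with 10 without control replicate 2, 11 after a further quantile normalization, 13 with the spike-in covariate and 31 with array quality weights. Cep135, a centriole protein, was at 4.97, 5.26, 5.77 and 5.18 in shTR1 cells, against 6.15, 6.32, 5.74 and 5.70 in control cells, and at 4.96 to 5.36 in shTR1/shSep15 cells, against 5.87 to 6.22 in shSep15 cells. It fell by 0.80 (adjusted p = 0.0123), with shTR1 replicate 3 inside the control range. Nipbl, which loads cohesin onto DNA, fell by 0.72 (adjusted p = 0.036) at its brightest probe set, while 4 others differed by -0.60 to -0.04 and did not pass. Cps1, the mitochondrial carbamoyl phosphate synthetase of the urea cycle, fell by 0.46 at signals of 3.53 to 3.92 with and 3.70 to 4.54 without the hairpin, below the median signal of the arrays in nearly all of them. Ccdc80, a secreted matrix protein, fell by 1.26 at a dim probe set and differed by -0.46 at the brighter one (adjusted p = 0.0437 and 0.101). None of these 4 had groups without overlap, which in this direction held for 5 of all 45037 probe sets (0.0111%).

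**Figure D4:**
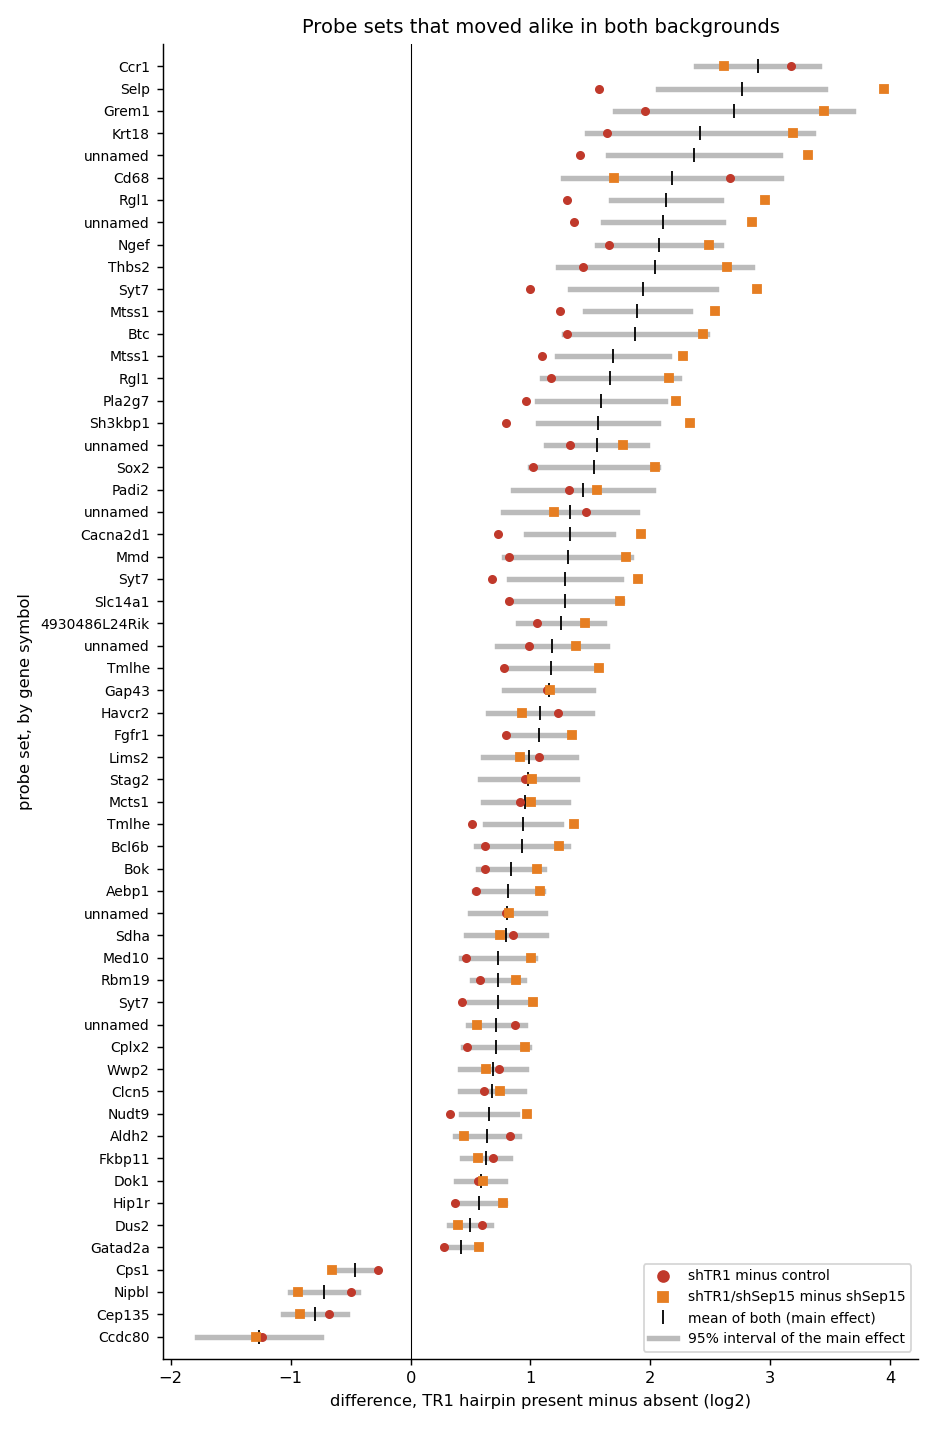
The 58 probe sets that moved alike, ordered by main effect. Circles are the log2 difference of shTR1 minus control, squares of shTR1/shSep15 minus shSep15, ticks the main effect and grey bars its 95% interval; squares lie farther from 0 than circles in 47 of the 58, and probe sets marked unnamed have no single gene symbol.

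The TR1 effect differed between the backgrounds in 59 of the 79 other probe sets that passed (adjusted p of the difference under 0.05). Over all 45037 probe sets this held for 1282 (2.85%). Opposite signs were found in 28 of the 79, against 26722 of all 45037, and 69 of the 79 had the larger effect with the Sep15 hairpin. The 79 are those that missed the criteria for moving alike, which favours such differences, so these counts are a description. Ifitm1, an interferon-induced membrane protein, was at 10.74 to 10.93 in shTR1/shSep15 cells, against 4.56 to 5.86 in shSep15 cells, and at 11.20, 11.49, 7.67 and 7.46 in shTR1 cells, against 7.92 to 9.10 in control cells. Its effects were 5.54 with and 0.86 without the Sep15 hairpin (adjusted p of the difference 0.0301). Afp, the fetal serum protein alpha-fetoprotein, and 2210016F16Rik differed by 6.78 and 5.53 with, and by -1.17 and -0.40 without, the Sep15 hairpin. In both the shSep15 arrays were the low ones, at 2.71 to 3.67 and 3.81 to 4.26, while the control arrays were at 9.31 to 9.70 and 8.38 to 9.44.

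In the other direction, Ctso, a cathepsin, fell by 3.99 with the Sep15 hairpin and differed by -0.08 without it. Tmem47, a junction protein, was at 4.41 to 6.03 in shSep15 cells and at 2.29 to 2.53 in the other 3 lines. Dppa2, a factor of pluripotent cells that binds DNA, was at 2.89 to 4.15 in shTR1 cells, against 7.37 to 8.60 in control cells, and at 3.20 to 5.54 in shTR1/shSep15 cells, against 3.29 to 4.10 in shSep15 cells. The guanine nucleotide exchange factor Arhgef5 had a main effect of 0.10 (adjusted p = 0.88) as the mean of a fall of 4.70 without and a rise of 4.90 with the Sep15 hairpin. It was at 4.36 to 4.75 in shTR1 cells, against 8.72 to 9.60 in control cells, and at 9.37 to 9.84 in shTR1/shSep15 cells, against 4.53 to 4.92 in shSep15 cells.

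In the pathways around TR1, no gene of the thioredoxin system, the Nrf2 targets, glutathione synthesis and reduction or the NADPH-producing enzymes passed at its brightest probe set, and Txnrd1 passed when all probe sets of a gene were averaged. At an unadjusted p under 0.05 for the main effect, 6.91% of all 18193 genes were higher and 3.57% lower, and 4090 of all probe sets were beyond it. Of 27 genes of the thioredoxin system, 3 were higher and 2 lower at that level, with a median main effect of 0.03. Among these, Txnip, the thioredoxin inhibitor, differed by -1.09 (-1.13 without and -1.04 with the Sep15 hairpin, unadjusted p = 0.044) and Glrx, a glutaredoxin, by 0.49 (unadjusted p = 0.00231), both with an adjusted p over 0.05 (0.529 and 0.169). Of 35 Nrf2 targets measured, 7 were higher and 2 lower at this level, Txnrd1 being among the lower ones, and the median was 0.21, with -0.02 without and 0.39 with the Sep15 hairpin. Abcc4, an export pump, differed by 1.10 (adjusted p = 0.137), with 1.07 and 1.14 in the 2 backgrounds, whereas Nqo1 (0.30), Hmox1 (0.46), Gclc (0.16) and Gclm (-0.35) did not pass (adjusted p = 0.646, 0.739, 0.863 and 0.771). Of 25 glutathione genes 1 and of 21 NADPH enzymes 5 were higher at the unadjusted level, with medians of -0.02 and 0.24. The median of the NADPH enzymes was 0.073 without and 0.405 with the Sep15 hairpin.

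Of 23 selenoprotein genes measured, Selenop, which carries selenium between tissues, was the only one to pass at the brightest probe set. It fell by 0.91 (adjusted p = 0.0419), passing in 9 of the 30 other settings, and the difference came from the shSep15 arrays, at 4.52 to 5.86, since the other 3 lines were at 3.14 to 3.75. The related reductase genes Txnrd2 and Txnrd3 differed by 0.16 and 0.44 (adjusted p = 0.723 and 0.552), Gpx1 by -0.02 and Gpx4 by 0.25.

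In the remaining lists, Tnc, the matrix glycoprotein tenascin C, and Thbs2 were the only ones to pass of 32 matrix genes, in 13 and 12 of the 30 other settings. Tnc was at 6.62 to 7.46 in shTR1/shSep15 cells, against 3.09 to 3.56 in shSep15 cells, and at 6.78 in shTR1 replicate 1 but 3.42 to 3.77 in the other 3 shTR1 arrays, against 3.33 to 4.43 in control cells, and did not move alike. No gene passed among 39 of DNA replication and S phase, 31 of G2 and mitosis, 39 of DNA repair, 22 of Trp53 and its targets, 42 interferon-stimulated genes, 39 Wnt components, 22 immediate-early factors, 27 of endoplasmic reticulum folding, 25 of glycolysis and hypoxia, 12 endothelial or 16 fibroblast markers. In the replication and mitosis lists 36 of 39 and 29 of 31 genes had a positive main effect, against 47.6% of all genes, with medians of 0.34 in each. The replication median was 0.339 without and 0.452 with the Sep15 hairpin, and the mitosis median 0.039 without and 0.855 with it. Of these, 4 and 3 reached an unadjusted p under 0.05. The list mean of the mitosis genes was 7.74 to 9.29 in shTR1 cells, against 7.44 to 9.35 in control cells, and 8.96 to 9.20 in shTR1/shSep15 cells, against 8.19 to 8.58 in shSep15 cells. Of 42 interferon-stimulated genes, 41 had a negative main effect, with a median of -0.88 that joined 0.57 without to -2.40 with the Sep15 hairpin. Their list mean was 6.23, 7.61, 6.25 and 9.12 in shTR1 replicates 1 to 4, against 5.87 to 7.92 in control cells, and 5.50 to 5.89 in shTR1/shSep15 cells, against 6.67 to 9.26 in shSep15 cells.

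**Figure D5:**
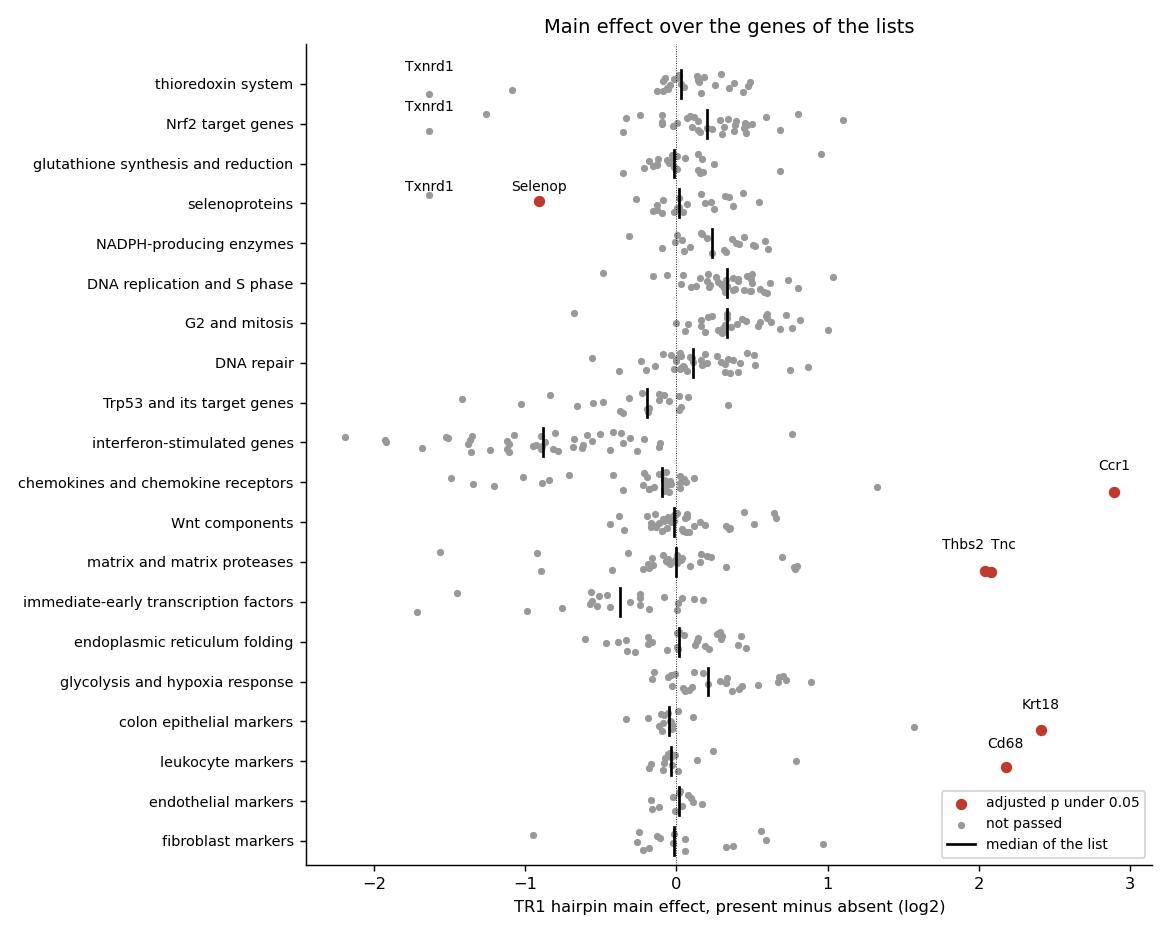
Main effect of the TR1 hairpin (log2, present minus absent) for each gene of 20 lists, 1 point per gene at its brightest probe set, with the median of each list as a line. Red points passed at an adjusted p under 0.05 (Selenop, Ccr1, Thbs2, Tnc, Krt18 and Cd68); Txnrd1, at -1.64, is named in the 3 lists that hold it.

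The promoters of the genes that moved alike were read from RefSeq (GRCm38.p6), as the 250 bases before the transcript start. A window was found for 32 of the 46 genes, 41 windows in all. The antioxidant response element, searched as TGACNNNGC on both strands, was in 4 of 41 windows (9.76%), against 10.16% of all 32851 windows. The AP-1 motif TGANTCA, which shares its first letters with that element where the middle base is C, was in 5 (12.2%), in Cd68, Gatad2a, Havcr2, Nudt9 and Selp, against 6.75% of all. The loose NF-kB pattern, searched as GGG and CC with 5 bases of any kind between them, was in 27 (65.85%), against 45.8% of all, and the median GC content of these windows was 59.6%, against 52.4%. A match is a description of the letters and not a bound site. The promoters of Ccr1, Ngef and Btc are shown because these are the named genes of the largest change without overlap that have a single window in the table, and Cd68 because it holds the AP-1 motif at 2 places, 149 and 24 bases before the start. Capitals mark the AP-1 motif in Cd68 and the NF-kB pattern in the others, which begins 74 bases before the start in Ccr1, 141 in Ngef and 108 in Btc.
Ccr1, chr9:123968693-123968942, minus strand: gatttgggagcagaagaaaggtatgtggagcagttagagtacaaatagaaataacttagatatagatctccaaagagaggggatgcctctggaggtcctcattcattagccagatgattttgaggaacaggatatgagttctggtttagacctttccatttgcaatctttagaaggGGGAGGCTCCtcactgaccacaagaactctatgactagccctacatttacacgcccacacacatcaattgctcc
Ngef, chr1:87573871-87574120, minus strand: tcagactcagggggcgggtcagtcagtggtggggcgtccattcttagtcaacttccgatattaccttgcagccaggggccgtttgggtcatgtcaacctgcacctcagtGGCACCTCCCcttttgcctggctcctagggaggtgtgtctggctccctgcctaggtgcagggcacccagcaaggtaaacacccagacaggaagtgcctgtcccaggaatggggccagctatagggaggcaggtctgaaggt
Btc, chr5:91402995-91403244, minus strand: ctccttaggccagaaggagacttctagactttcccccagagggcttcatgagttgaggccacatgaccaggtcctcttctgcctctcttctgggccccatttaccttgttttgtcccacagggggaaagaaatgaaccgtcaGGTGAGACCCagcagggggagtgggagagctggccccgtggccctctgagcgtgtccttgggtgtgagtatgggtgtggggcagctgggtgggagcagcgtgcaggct
Cd68, chr11:69666171-69666420, minus strand: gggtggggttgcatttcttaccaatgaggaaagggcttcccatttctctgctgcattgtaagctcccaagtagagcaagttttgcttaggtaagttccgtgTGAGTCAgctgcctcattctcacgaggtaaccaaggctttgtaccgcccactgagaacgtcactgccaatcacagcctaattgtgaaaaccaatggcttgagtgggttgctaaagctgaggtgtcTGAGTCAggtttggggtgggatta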

How the data were processed

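RNA from 4 mRNA samples of each of 4 lines was hybridized to Affymetrix mouse genome arrays. The authors deposited log2 signals made with RMA, which corrects background, normalizes arrays by quantiles and summarizes the probes of a probe set (version not given in the sources used here). These values were used as deposited, without a pseudocount or a filter on low signals. Of 45101 probe sets, 64 control probe sets were left out. Probe sets were named through the platform annotation and symbols were updated by gene number to RefSeq, which left 34945 with 1 symbol, 932 with several and 9160 with none. A gene was represented by its probe set with the highest mean over all arrays.

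A mean for each line was fitted with limma 3.58.1 in R 4.3.3, with 12 residual and 2.58 prior degrees of freedom, and p-values of the 5 contrasts were adjusted by Benjamini-Hochberg over 45037 probe sets. The labels number the arrays of each line and do not say that a number marks a shared batch. The deviations of same-numbered arrays from their line means correlated at 0.105, 0.466, 0.147 and 0.335 between shTR1/shSep15 and shSep15 cells, and did not do so throughout between any other lines, so a block for these lines was added. Single values were tested by exact permutation of arrays within each background (two-sided). Only 2 lines stand against 2, so that the smallest p over lines is 0.333. Precision is limited by the number of arrays. The fit was tested on simulated data. Named genes were Txnrd1, Selenof, Ccr1 and Arhgef5, the 12 largest rises and up to 12 falls among genes that moved alike, the 3 largest changes in each direction among the others that passed, and up to 4 passing genes of each of 20 lists, beside further members named after their values were seen. The members and lists were chosen with earlier results of these data known. Alternatives varied the scaling, the filter, the model, the variance estimate, the definition of moving alike, the probe set summary of a gene and the arrays included. Figures were drawn with matplotlib 3.10.9.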

Additional observations from a re-analysis of the deposited data

Results flagged for a closer look

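In 10 of 104 groups of 4 arrays (26 named genes in 4 lines) 1 array lay far from the other 3 by Dixon's criterion, which chance alone meets in about 1 of 20 groups. These were Ccr1 in control replicate 3 (4.906) and in shTR1/shSep15 replicate 2 (6.163), Cd68 in shTR1 replicate 3 (5.834) and in shTR1/shSep15 replicate 2 (6.55), Mtss1 in shTR1 replicate 2 (8.248) and Cps1 in shSep15 replicate 1 (4.213). The others were Afp in shSep15 replicate 2 (2.71), Dppa2 in shTR1/shSep15 replicate 4 (5.539), Selenop in shTR1 replicate 4 (3.568) and Tnc in shTR1 replicate 1 (6.776). The array of Cd68 in shTR1 cells lay within the control range and that of Tnc at the level of the shTR1/shSep15 arrays.

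For 8 named genes the TR1 effect differed between the backgrounds by limma's contrast of the 2 differences, given here as the effect with minus the effect without the Sep15 hairpin on the log2 scale. It was higher with the Sep15 hairpin for Arhgef5 (9.604), Afp (7.949), 2210016F16Rik (5.926), Dppa2 (4.835) and Ifitm1 (4.68), and lower for Ctso (-3.911), Tmem47 (-3.032) and Selenop (-1.951).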

How the results depend on the processing

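The 137 probe sets of the main effect and the 58 that moved alike became 20 and 19 in an additive model, 11 and 11 with the TR1 term alone, and 8 and 8 with the line as a random block. That block used a common correlation of 0.054 among the arrays of a line. The arrays therefore still counted almost as separate samples, and these 8 were not tested over lines. They were 573 and 213 with array quality weights, 63 and 29 with the methods' unmoderated test after adjustment, 3825 and 228 at its unadjusted p, 58 and 32 when at least 2-fold was asked, and 66 and 30 with the replicate number as a block in the shTR1/shSep15 and shSep15 lines alone (chosen after seeing the data). Leaving out 1 array gave 63 to 205 for the main effect and 28 to 89 that moved alike, the lowest without shTR1/shSep15 replicate 3 and the highest without shTR1 replicate 4. Other definitions of moving alike gave 109 with the same sign only, 20 with all 8 arrays beyond all 8, and 1 with both differences past the adjusted threshold.

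The 81 probe sets of shTR1 against control cells became 48 with an intensity trend, 222 with weights, 53 with the methods' test, 20 without shTR1 replicates 2 and 4, 35 with the spike-in level as a covariate (chosen after seeing the data), and 25 to 211 when 1 array was left out, the extremes without control replicates 4 and 1. The 1196 of shTR1/shSep15 against shSep15 cells became 5525 with weights, 738 with the methods' test, 1893 with the spike-in covariate and 613 to 2239 without 1 array. The 1282 that differed between the backgrounds became 4462 with weights, 744 with the methods' test, 519 without shTR1 replicates 2 and 4, and 656 to 2340 without 1 array. The highest of both ranges arose without control replicate 2. The Sep15 hairpin's own main effect had 38, which became 16 among bright probe sets, 25 after median centring, 77 after further quantile normalization, 334 with weights, 18 with the methods' test, 115 with the spike-in covariate and 17 to 97 without 1 array. The cause of these shifts was not tested.

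With the replicate number as a block in all lines, 96 probe sets passed for the main effect, 44 moved alike and 16 passed for the Sep15 hairpin. Over all pairs of lines 8 of 24 correlations of same-numbered arrays were over 0.1 and 3 of 16 arrays correlated best with their own number. Between shTR1/shSep15 and shSep15 arrays all 4 were over 0.1, and with the replicate block in these lines alone 970 probe sets passed between them, 1072 differed between the backgrounds and 1 passed for the Sep15 hairpin. Of the named genes, Grem1, Krt18, Cd68, Thbs2, Cep135, Nipbl, Cps1, Ifitm1, Afp and Tnc did not pass under it.

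Txnrd1 passed among bright probe sets (-1.64, adjusted p = 0.0404), with weights (-1.44, adjusted p = 0.0299), at the methods' unadjusted test (-1.64, p = 0.00106, an unmoderated contrast outside the exact tests), and without shTR1 replicates 2 and 4 (-2.21, adjusted p = 0.000519). Without 1 array it ranged from -1.90 to -1.44 (adjusted p from 0.0106 without shTR1 replicate 2 to 0.145). Selenof, at 0.019, changed sign without passing when shTR1 replicates 2 and 4 were left out (-0.082), with the spike-in covariate (-0.043) and without control replicate 2 (-0.073), shTR1 replicate 4 (-0.067) or shTR1/shSep15 replicate 1 (-0.015), and ranged from -0.073 to 0.071 without 1 array. Ccr1, Rgl1 and Ngef passed in the same direction in all 32 alternatives.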
